A study of Papio anubis with 24 samples.

Results

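Chromosomes 16 and 20 of the olive baboon (Papio anubis) are described here by the sites of enriched DNA methylation that fell on them in embryonic stem cells (ESC) and in induced pluripotent stem cells (iPSC). All peaks on either chromosome were taken from the deposited lists, 1 per cell type. They came to 14530 of 166961 ESC peaks and 4226 of 44434 iPSC peaks, or 8.70% and 9.51% of the lists, on 5.67% of the autosomal span. Chromosome 16 held 7777 ESC and 2238 iPSC peaks, and chromosome 20 held 6753 and 1988. The pair was chosen by its density of peaks in these same lists, so density, position, ratio between the lists, overlap and width are given as descriptions without a test.

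DNA methylation was measured by MeDIP-seq, in which fragmented genomic DNA is precipitated with an antibody against 5-methylcytosine and sequenced beside an input library that skips the precipitation. The ESC libraries came from the lines B4 and B15 and the iPSC libraries from the lines 160-2 and M14939#3, all without further treatment in the labels and all grown on feeder cells. Each line had 3 MeDIP and 3 input libraries, 24 in all. In the labels, 5 of the 6 M14939#3 libraries have a different digit behind the hash in the cell line field than in the title. Each cell type has a single peak list, so values per library or line were not analysed here, and cell type cannot be told apart from line.

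Most cytosine methylation in mammals sits on CpG dinucleotides, and it is copied to the new strand after replication by a maintenance methyltransferase. Pluripotent cells carry it across most of the genome, apart from CpG islands at many promoters. The antibody pulls down a fragment more efficiently the more methylated cytosines it carries, so MeDIP favours stretches that are both rich in CpG and methylated. Primate chromosomes differ widely in CpG and gene content, and CpG content usually rises toward chromosome ends. The lists therefore give sites of enrichment, and they do not give a methylation level per cytosine. CpG content was not examined here.

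The chromosomes ranked next to each other in the ESC list. Chromosome 16 carried 104 ESC peaks per Mb (exact Poisson 95% interval 101 to 106) and ranked 2 of 20 autosomes, and chromosome 20 carried 93.7 (91.5 to 96.0) and ranked 3. The remaining 18 autosomes together carried 56.0 per Mb, so the densities were 1.85 times (1.81 to 1.89) and 1.67 times (1.63 to 1.71) that level. In the iPSC list chromosome 16 carried 29.9 peaks per Mb (28.6 to 31.1) and chromosome 20 carried 27.6 (26.4 to 28.8), against 14.9 for the others. These are ratios of 2.01 (1.92 to 2.10) and 1.86 (1.77 to 1.94). All intervals describe counting error alone and would hold for independent peaks, whereas neighbouring peaks share sequence and local background.

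Chromosome 10 was the nearest neighbour in density. It had 90.1 ESC peaks per Mb (88.1 to 92.0), with an interval below that of chromosome 16 and overlapping that of chromosome 20. Its 30.3 iPSC peaks per Mb (29.2 to 31.5) put chromosomes 16 and 20 at ranks 3 and 4 in the iPSC list, behind it and chromosome 19. The iPSC intervals of chromosomes 10 and 16 overlapped, and those of chromosomes 10 and 20 did not. Chromosome 18, which is 72.5 Mb long and so close in length to chromosomes 16 (74.9 Mb) and 20 (72.0 Mb), carried only 58.7 ESC and 15.9 iPSC peaks per Mb. Peaks covered 2.61% of chromosome 16 and 2.35% of chromosome 20 in the ESC list, and 0.915% and 0.874% in the iPSC list, against 1.38% and 0.473% of the other autosomes.

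**Figure D1:**
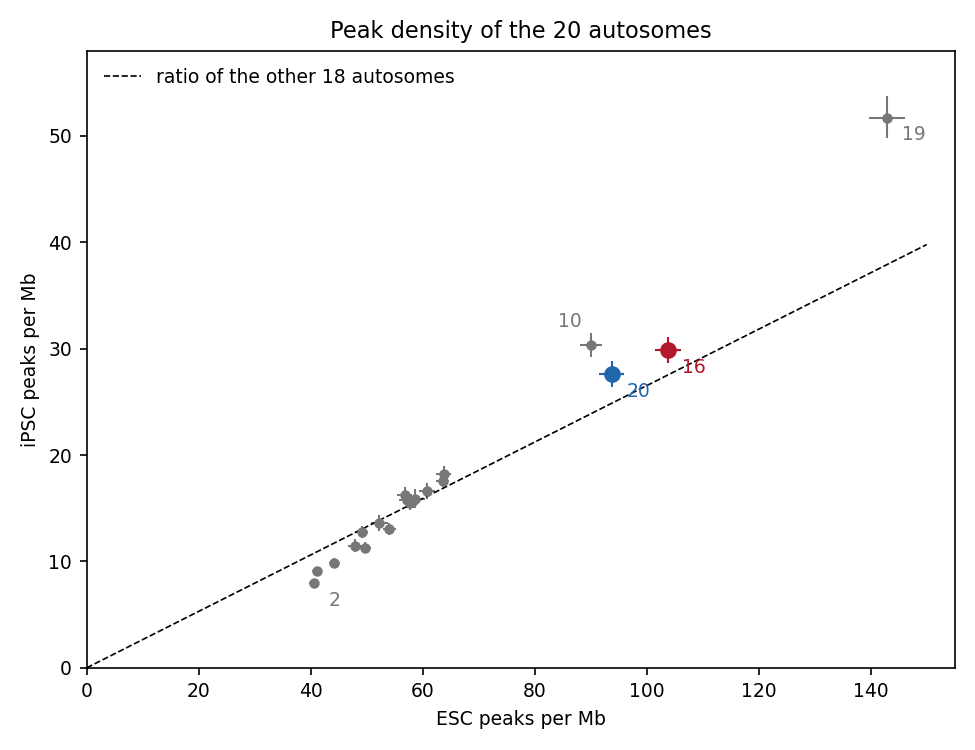
Peaks per Mb of each of the 20 autosomes in the ESC list (horizontal axis) and the iPSC list (vertical axis), with exact Poisson 95% intervals, and a dashed line at the ratio of the other 18 autosomes. Chromosomes 16 (red, 104 and 29.9 per Mb) and 20 (blue, 93.7 and 27.6) lie apart from the main cloud, beside chromosome 10 and below chromosome 19.

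Seen in 1 Mb windows, both chromosomes had the outline of a basin with raised walls and an uneven floor. The 75 windows of chromosome 16 held 18 to 367 ESC peaks with a median of 93, and the 73 windows of chromosome 20 held 7 to 318 with a median of 73, the lowest count falling in a last window only 0.0476 Mb long. The median over all 2604 autosomal windows was 42. In the iPSC list the windows ran from 2 to 158 (median 21) on chromosome 16 and from 0 to 133 (median 18) on chromosome 20, against an autosomal median of 8. Counts above the autosomal median were found in 66 windows of chromosome 16 and 60 of chromosome 20 for ESC, and in 65 and 63 for iPSC.

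A window was called dense when it held at least 2 times the autosomal median, which is 84 ESC or 16 iPSC peaks. By this rule 43 of 75 windows of chromosome 16 (57.3%) and 28 of 73 of chromosome 20 (38.4%) were dense in the ESC list, where 19.2% of all autosomal windows were. In the iPSC list 48 (64.0%) and 46 (63.0%) were dense, against 30.2% of all. The interior, meaning windows centred more than 5 Mb from both ends, accounted for most of these calls. There 33 of 65 windows of chromosome 16 and 18 of 62 of chromosome 20 were dense for ESC (50.8% and 29.0%), against 12.5% of the interior windows of the other autosomes. For iPSC 38 and 36 interior windows were dense (58.5% and 58.1%), against 22.8%. The interior share of dense ESC windows was higher on chromosome 16, though the exact intervals (38.1 to 63.4% and 18.2 to 41.9%) overlapped, and the iPSC shares were nearly equal.

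**Figure D2:**
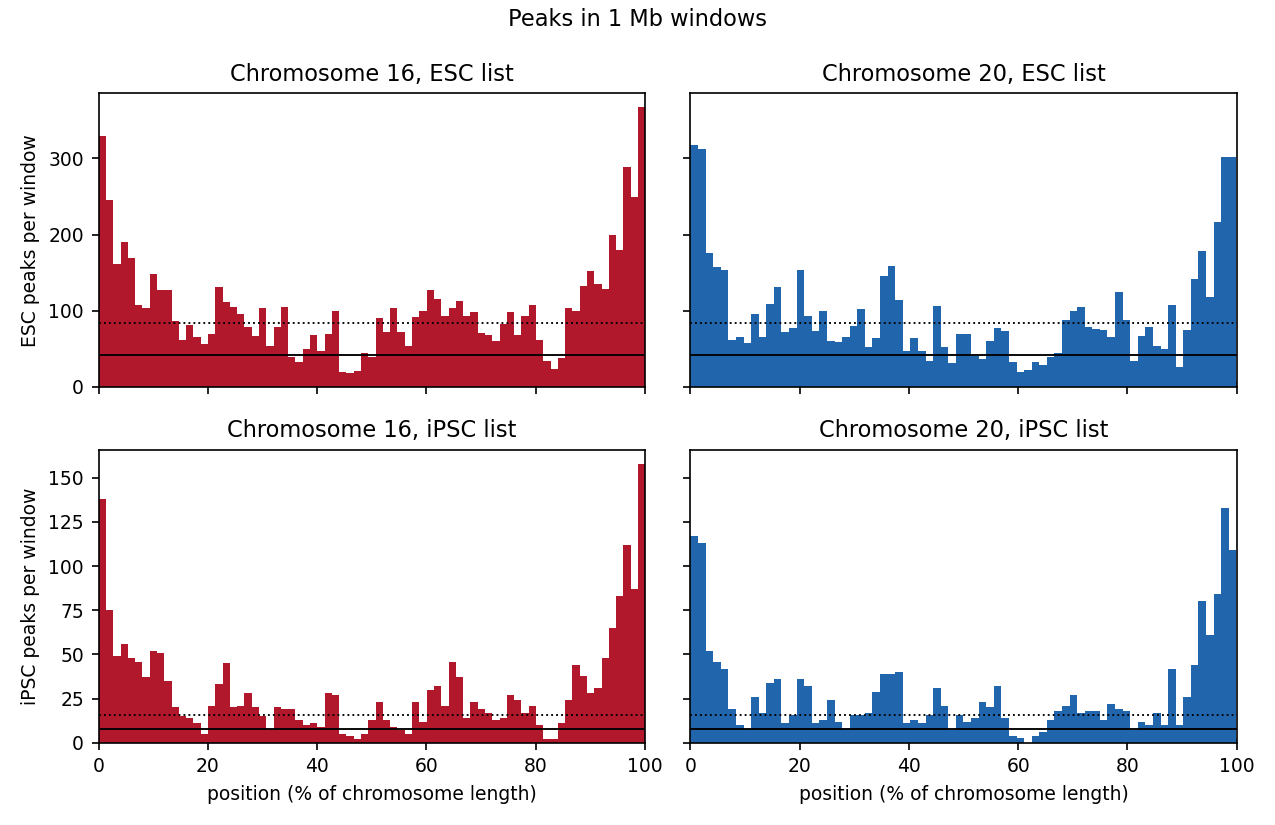
Peaks per 1 Mb window along chromosomes 16 (left) and 20 (right) in the ESC list (top) and the iPSC list (bottom), with position as a percent of chromosome length. The solid line marks the autosomal window median (42 ESC, 8 iPSC) and the dotted line 2 times that value. Counts rise steeply in the outermost windows, up to 367 ESC peaks on chromosome 16, and dip below the solid line in short interior stretches.

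The fullest windows lay at the ends. On chromosome 16 the last window, from 74 Mb to the end of the last peak, held 367 ESC and 158 iPSC peaks, and it ranked 2 of 2604 autosomal windows in both lists. The opening window (0 to 1 Mb) held 329 and 138. Windows at 72 to 73 Mb (289 and 112), 73 to 74 Mb (250 and 87) and 1 to 2 Mb (245 and 75) followed in ESC count, and the window at 71 to 72 Mb, with 180 ESC and 83 iPSC peaks, took rank 5 on the chromosome in iPSC count. The 5 fullest windows of chromosome 20 were the same in both lists. They were 0 to 1 Mb (318 ESC and 117 iPSC peaks), 1 to 2 Mb (312 and 113), 70 to 71 Mb (302 and 133), 71 to 72 Mb (302 and 109) and 69 to 70 Mb (217 and 84). The 5 fullest windows of each list held 19.03% of ESC and 25.8% of iPSC peaks of chromosome 16, and 21.5% and 28.0% of those of chromosome 20.

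Inside the chromosomes dense and sparse stretches alternated. Besides its ends, chromosome 16 had a run of 9 dense ESC windows from 43 to 52 Mb, with 936 ESC and 238 iPSC peaks (104 and 26.4 per Mb), and a run of 4 from 16 to 20 Mb with 443 and 119. The dense runs at its ends were 11 windows long on either side, from 0 to 11 Mb (1793 and 607 peaks) and from 64 Mb to the end (2036 and 718). The dense runs at the ends of chromosome 20 were shorter, at 5 windows from 0 to 5 Mb (1117 and 370) and 6 windows from 66 to 72 Mb (1259 and 511). Its interior held runs of 3 dense windows at 25 to 28 Mb (418 and 118) and at 49 to 52 Mb (293 and 65).

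Of sparse stretches, only runs of at least 3 windows are given, so shorter dips are left out. Neither these nor the dense runs were set beside runs of the other autosomes, so their number and length have no background here. On chromosome 16, runs of at least 3 windows below the autosomal ESC median were found from 33 to 36 Mb, with 59 ESC and 11 iPSC peaks, and from 61 to 64 Mb, with 95 and 15. The only such run on chromosome 20 spanned 6 windows from 42 to 48 Mb and held 174 ESC and 30 iPSC peaks (29.0 and 5.00 per Mb). It contained the window at 44 to 45 Mb, where 22 ESC peaks stood beside 0 iPSC peaks. The 3 windows with the fewest ESC peaks on chromosome 16 adjoined each other at 33 to 34 (20 ESC and 5 iPSC peaks), 34 to 35 (18 and 4) and 35 to 36 Mb (21 and 2). On chromosome 20, apart from the short last window with 7 and 2, the lowest were 43 to 44 Mb (19 and 3) and 44 to 45 Mb. Windows rich in ESC peaks were also rich in iPSC peaks, with a Spearman correlation across windows of 0.876 on chromosome 16 and 0.811 on chromosome 20, against 0.870 over the other autosomes. In interior windows alone it was 0.810 (65 windows) and 0.697 (62 windows), against 0.843. Neighbouring windows share local sequence and are not independent replicates.

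Peaks gathered near the ends of both chromosomes, and the interior was raised as well. Within 5 Mb of an end lay 30.6% of ESC peaks on chromosome 16 (exact Clopper-Pearson interval 29.6 to 31.6%) and 33.1% on chromosome 20 (31.9 to 34.2%), where an even spread would give 13.3% and 13.9%. On the other autosomes the share was 20.7%, where an even spread would give 7.36%. For iPSC the shares were 39.0% (36.9 to 41.02%) and 42.1% (39.9 to 44.3%), against 31.2%. The end zones carried 238 ESC peaks per Mb for chromosome 16 (rank 1 of 20) and 223 for chromosome 20 (rank 2), against 158 for the others. The interior held 83.1 and 72.9 ESC peaks per Mb against 48.0. The end zones were therefore 2.86 and 3.06 times as dense as the interior, below the 3.28 of the pooled other autosomes. In the iPSC list, the end zones carried 87.2 and 83.7 peaks per Mb against 63.1, the interior 21.03 and 18.6 against 11.0, and the ratios were 4.15 and 4.51 against 5.72.

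At equal distance from an end the excess over the other autosomes was uneven. In the outermost Mb chromosome 16 had 355 ESC peaks per Mb, 1.76 times the other autosomes, and chromosome 20 had 305, 1.51 times. From 1 to 2 Mb the order turned, with 250 per Mb on chromosome 16 (1.36 times) and 303 on chromosome 20 (1.65 times). Between 5 and 10 Mb the chromosomes parted: chromosome 16 had 127 ESC and 41.2 iPSC peaks per Mb, 1.49 and 1.58 times the others, whereas chromosome 20 had 75.2 and 21.4, or 0.887 and 0.821 times. It was the only distance zone in which either chromosome fell below the other autosomes. More than 20 Mb from both ends the iPSC excess was greater than the ESC excess, with 17.2 iPSC peaks per Mb on chromosome 16 and 17.4 on chromosome 20, 2.03 and 2.06 times the others, beside ESC ratios of 1.78 and 1.59. The other autosomes reach far deeper than these short chromosomes in that last zone. Chromosome 10 had the same order there, at 2.31 times the others in iPSC and 1.57 times in ESC.

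**Figure D3:**
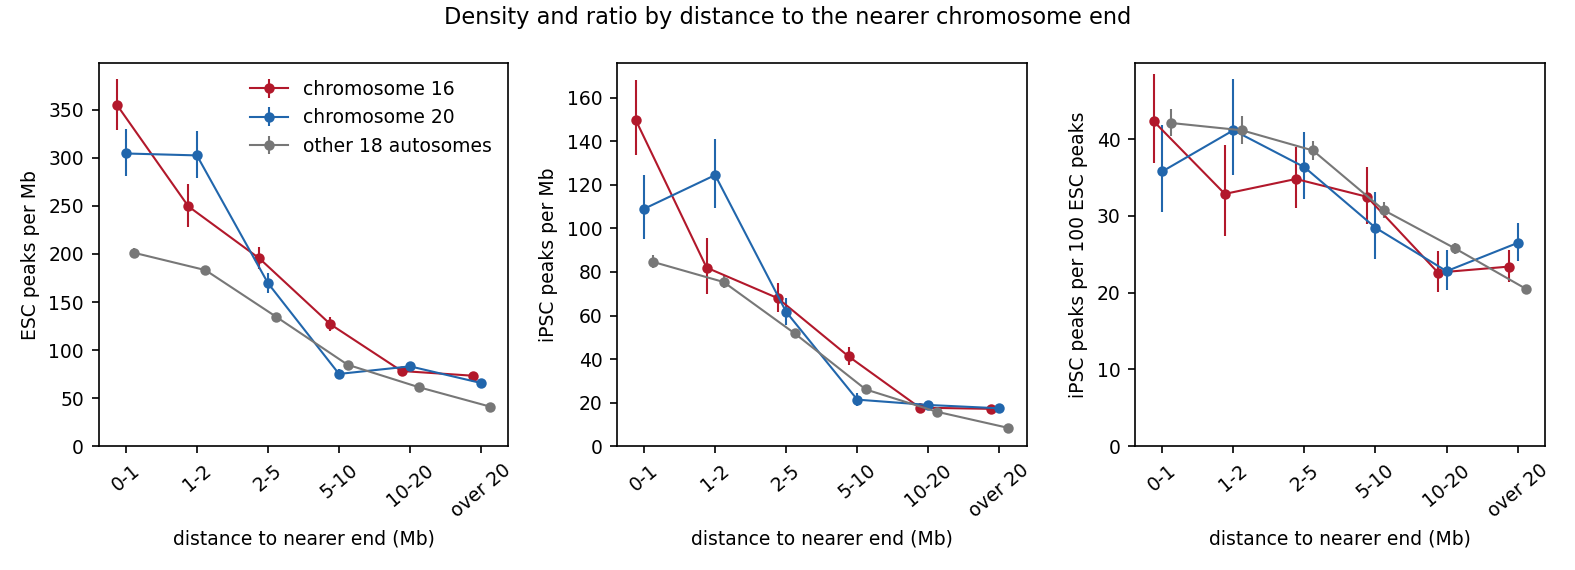
ESC peaks per Mb (left), iPSC peaks per Mb (middle) and iPSC peaks per 100 ESC peaks (right) by distance to the nearer chromosome end, in 6 zones, for chromosomes 16 (red), 20 (blue) and the other 18 autosomes (grey), with exact 95% intervals. In the zone from 5 to 10 Mb chromosome 20, at 75.2 ESC peaks per Mb, drops below the grey line and chromosome 16, at 127, stays above it.

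The iPSC list was short beside the ESC list on both chromosomes, slightly less so than elsewhere in the full lists. Per 100 ESC peaks, 28.8 iPSC peaks were listed on chromosome 16 (27.4 to 30.2) and 29.4 on chromosome 20 (28.0 to 31.0), ranks 4 and 3 of 20, against 26.5 (26.2 to 26.8) for the other autosomes and 33.7 (32.2 to 35.1) for chromosome 10. Relative to the other autosomes these are ratios of 1.08 (1.03 to 1.14) and 1.11 (1.06 to 1.17). With the ESC list shortened to the iPSC length they were 1.05 (0.988 to 1.11) and 1.06 (0.996 to 1.13), and both intervals then held 1. Divided by zone, the order turned at the ends. In the end zones the ratios were 36.6 (33.9 to 39.6) and 37.5 (34.6 to 40.6), below the 40.05 (39.2 to 40.9) of the others, with overlapping intervals for both chromosomes. In the interior they were 25.3 (23.8 to 26.9) and 25.5 (23.8 to 27.2), above 23.0 (22.7 to 23.3). With the zone ratios of the other autosomes and their own division of ESC peaks between ends and interior, chromosomes 16 and 20 would have 28.2 and 28.6 iPSC peaks per 100 ESC peaks. These values lie near the observed 28.8 and 29.4, with the end ratios below and the interior ratios above those of the others. The same calculation gave 26.9 for chromosome 10, where 33.7 was observed, and 29.4 for chromosome 18, where 27.1 was observed.

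Single windows varied around these ratios. Among windows with at least 20 ESC peaks, 10 of 74 on chromosome 16 (13.5%) and 9 of 71 on chromosome 20 (12.7%) had at least 1.5 times the autosomal ratio of 26.8 per 100, where 9.40% of all autosomal windows did, so these shares lie near the background. At the other extreme, 17 (23.0%) and 15 (21.1%) had at most the autosomal ratio divided by 1.5, against 41.5% of all. The highest ratios on chromosome 16 were 48.7 per 100 at 26 to 27 Mb (19 iPSC and 39 ESC peaks), 46.1 at 71 to 72 Mb (83 and 180) and 44.4 at 65 to 66 Mb (44 and 99). On chromosome 20 they were 62.2 at 38 to 39 Mb (23 and 37), 51.7 at 68 to 69 Mb (61 and 118) and 47.1 at 31 to 32 Mb (16 and 34). The lowest on chromosome 16 were 5.88 at 61 to 62 Mb (2 and 34), 8.65 at 40 to 41 Mb (9 and 104) and 8.70 at 62 to 63 Mb (2 and 23). The window at 40 to 41 Mb was dense for ESC, with 104 peaks, and had an iPSC count close to the autosomal median. For chromosome 20 they were 0 at 44 to 45 Mb (0 and 22, which allows up to 18.3 per 100), 12.1 at 20 to 21 Mb (8 and 66) and 12.1 at 42 to 43 Mb (4 and 33), with which the window at 45 to 46 Mb (4 and 33) was tied.

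Each chromosome had more iPSC peaks at its last end than at its first. On chromosome 20 the first and last 5 Mb held nearly the same number of ESC peaks, 1117 and 1115, but 370 and 467 iPSC peaks, or 74.0 (66.7 to 81.9) and 93.4 (85.1 to 102) per Mb. The iPSC peaks that overlapped an ESC peak numbered 290 and 310, and those in the iPSC list alone 80 and 157, so the overlapping share was 78.4% (73.8 to 82.5%) at the first end and 66.4% (61.9 to 70.7%) at the last. iPSC peaks of 1 kb or more numbered 4 and 12, and the median width of the iPSC peaks without an ESC counterpart was 246 and 315 bp. On chromosome 16 the last end held more of both, with 1286 ESC and 506 iPSC peaks against 1094 and 366 at the first. There 137 against 81 iPSC peaks stood alone, and 10 against 2 were 1 kb or wider. In iPSC peaks per 100 ESC peaks, the last end exceeded the first by 8.76 on chromosome 20 and by 5.89 on chromosome 16. Differences of this size were usual, since over the other 18 autosomes the absolute difference ranged from 2.244 to 19.8 with a median of 10.3. From first to last end the overlapping iPSC share changed by -12.0 percentage points on chromosome 20 and by -4.94 on chromosome 16. Both lay within the -14.0 to 10.8 of the other 18 autosomes.

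**Figure D4:**
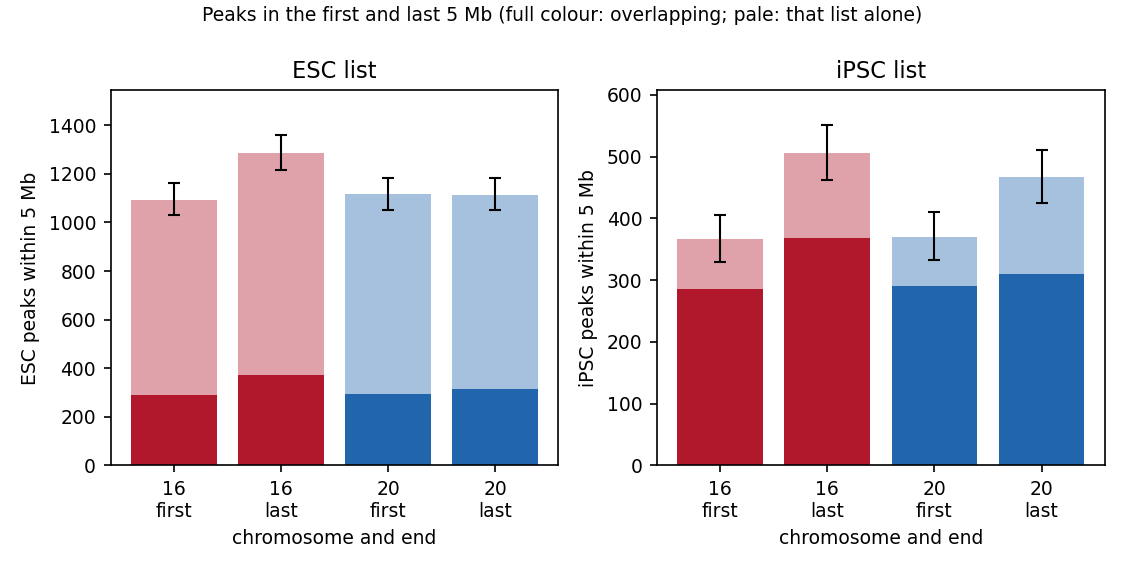
ESC peaks (left) and iPSC peaks (right) in the first and last 5 Mb of chromosomes 16 and 20, divided into peaks that overlap the other list (full colour) and peaks in that list alone (pale), with exact Poisson 95% intervals of the total. On chromosome 20 the ESC bars stand at 1117 and 1115, while the iPSC bars stand at 370 and 467, with 80 and 157 peaks in the pale part.

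Most iPSC peaks of both chromosomes lay on ESC peaks. By an overlap of at least 1 bp, 1531 of 2238 iPSC peaks of chromosome 16 (68.4%, 66.4 to 70.3%) and 1307 of 1988 of chromosome 20 (65.7%, 63.6 to 67.8%) met an ESC peak, against 66.5% of all autosomal iPSC peaks. Among ESC peaks, 1550 (19.9%, 19.05 to 20.8%) and 1325 (19.6%, 18.7 to 20.6%) met an iPSC peak, against 18.1% of all. The iPSC shares lie close to the background. The ESC shares ranked 3 and 4 of 20 and lay somewhat above the 17.9% of the other autosomes. Their ratios to that value were 1.115 (1.065 to 1.165) and 1.097 (1.045 to 1.152). With interior peaks only the ratios were 1.087 (1.022 to 1.154) and 1.047 (0.977 to 1.119), and the interval of chromosome 20 then held 1. The iPSC share differed by zone, at 75% (71.99 to 77.8%) and 71.7% (68.5 to 74.7%) near the ends and 64.2% (61.6 to 66.7%) and 61.4% (58.5 to 64.2%) in the interior. The other autosomes also had more overlap near the ends, at 69.1% (68.2 to 69.9%) against 65.2% in the interior. The end share of chromosome 16 lay above that 69.1%, and the end interval of chromosome 20 held it. The interior share of chromosome 20 was the lowest of the 20 autosomes, just under the 61.6% of chromosome 10, and its interval did not reach the 65.2% of the other autosomes. The ESC share was 27.7% and 27.2% near the ends and 16.5% and 15.9% in the interior, beside 28.3% and 15.2% on the other autosomes.

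The background behind each peak was recovered from the deposited fold enrichment and p-value as the number of fragments expected at the site, to set the overlap beside it. The median over ESC peaks was 33.1 fragments on chromosome 16 and 34.0 on chromosome 20, against 28.6 on the other autosomes, and over iPSC peaks it was 27 on both, against 25. When all autosomal ESC peaks were divided into 4 equal bins by background, the highest bin held 32.3% of the ESC peaks of chromosome 16 and 33.1% of those of chromosome 20, against 24.2% elsewhere. Within that bin 43.7% (41.8 to 45.7%) and 43.2% (41.2 to 45.3%) overlapped an iPSC peak, below the 48.0% (47.5 to 48.5%) of the other autosomes. In the lowest bin overlap was rare everywhere, at 1.41%, 0.838% and 1.38%. Divided instead by −log10 q-value into 4 bins, the ESC shares of both chromosomes lay above the other autosomes in each bin. In the highest such bin they were 31.5% (29.5 to 33.6%) and 32.6% (30.4 to 34.8%) against 29.2%. In the second-lowest such bin both intervals held the 13.4% of the others. In the lowest, that of chromosome 20 (11.9 to 15.2%) held their 12.6%. In the highest bins, the direction of the difference in ESC overlap therefore depended on the measure that set the bins. Chromosome 10 had the same order there, at 44.4% by background and 32.3% by −log10 q-value. In the interior of chromosome 20, where iPSC overlap was lowest, the median iPSC background was 24 fragments, as on the other autosomes. Whether background sets the overlap was not tested.

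Sites that paired singly, an ESC peak with 1 iPSC peak and no further overlap, numbered 1487 on chromosome 16 and 1272 on chromosome 20, and allow the same places to be set side by side. Their summits lay a median of 18 and 19 bp apart. The deposited fold was higher in iPSC at 77.9% (75.7 to 80.03%) and 78.4% (76.0 to 80.6%) of them, against 77.0% of all autosomal pairs, a share near the background. Median folds were 2.04 in ESC and 2.51 in iPSC on chromosome 16, and 2.05 and 2.52 on chromosome 20. Depth is unknown and iPSC pileups are scaled by a fitted 0.690, so fragment numbers cannot be compared between the lists. Median backgrounds at these pairs were 56.4 fragments in ESC and 29.0 in iPSC on chromosome 16, and 59.1 and 29.2 on chromosome 20. Relative to the other autosomes this is 1.07 times in ESC (1.03 to 1.102) and 1.07 in iPSC (1.04 to 1.105) for chromosome 16, and 1.12 (1.08 to 1.15) and 1.08 (1.07 to 1.11) for chromosome 20. Over all pairs the background was thus higher in both lists. With interior peaks only, the ratios for chromosome 16 were 1.036 in ESC (1 to 1.073) and 1.04 in iPSC (1 to 1.08). Those for chromosome 20 were 1.036 (1 to 1.073) and 1.04 (0.999998 to 1.064). The lower bounds thus lay at or just below 1, and a higher background in the interior is not clear from these values. The iPSC background divided by the ESC background at the same pair was 1.01 times that of the other autosomes on chromosome 16 and 0.984 times on chromosome 20, and the single other autosomes ran from 0.973 to 1.02. By segments of 10 Mb it stayed between 0.935 and 1.08 on both chromosomes.

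Peaks of these chromosomes were slightly wider than elsewhere in the ESC list and stood closer together. The median width of ESC peaks was 219 bp on chromosome 16 (interquartile range 192 to 278 bp) and 218 bp on chromosome 20 (192 to 273 bp), against 215 bp (191 to 268 bp) elsewhere. These medians ranked 2 and 3 of 20, and their intervals (217 to 220 bp on both) lay above 215 bp. With interior peaks only, the ratios to the other autosomes were 1.014 (1.005 to 1.019) and 1.005 (0.995 to 1.014). With the ESC list shortened to the iPSC length they were 1.009 (0.995 to 1.023) and 1.018 (1.005 to 1.032). The interval of chromosome 20 held 1 in the former setting, and that of chromosome 16 in the latter. The median width of iPSC peaks was 242 bp (208 to 320 bp) and 246 bp (209 to 338 bp) against 241 bp. Near the ends the peaks were wider, with medians of 230 and 233 bp in ESC and 254 and 262 bp in iPSC, than in the interior, with 215 and 213 bp and 235 and 239 bp. On the other autosomes the ESC medians were 227 bp near the ends and 212 bp in the interior, and the iPSC medians 263 and 234 bp. The iPSC end medians of both chromosomes were thus not above those of the others. The median distance between neighbouring ESC peaks was 4570 bp on chromosome 16 and 4782 bp on chromosome 20, against 7591 bp elsewhere, and between iPSC peaks 12391 and 12653 bp against 17318 bp. Median folds were on the low side, at 2.20 for ESC peaks of both chromosomes against 2.29, and at 2.50 and 2.55 for iPSC peaks against 2.59. The fold is a ratio to the local background, and the background values are given above. Their part in the lower folds was not tested.

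Peaks of 1 kb or more were few. The ESC list had 8 on chromosome 16 (0.103%, 0.0444 to 0.203%) and 3 on chromosome 20 (0.0444%, 0.00916 to 0.130%), where 0.111% of all autosomal ESC peaks are that wide. In the iPSC list 31 (1.39%, 0.943 to 1.96%) and 32 (1.61%, 1.104 to 2.26%) were, against 2.10% of all. The interval of chromosome 16 lay below that value, and the interval of chromosome 20 held it. Of these wide iPSC peaks 12 and 16 lay within 5 Mb of an end, and 23 and 19 overlapped an ESC peak. These shares, 38.7% and 50% near ends and 74.2% and 59.4% overlapping, had exact intervals that held the 44.4% and 66.5% of the other autosomes. The widest ESC peak of chromosome 16 (74637577 to 74639674, 2098 bp, fold 1.72) overlapped an iPSC peak of 2122 bp with a fold of 3.98. Its widest iPSC peak (74346836 to 74349509, 2674 bp, fold 2.19) met none, and the nearest ESC peak was 4746 bp away. On chromosome 20 the widest ESC peak (203913 to 205583, 1671 bp, fold 2.32) overlapped 2 iPSC peaks, and the widest iPSC peak (31466583 to 31468632, 2050 bp, fold 3.22) overlapped 3 ESC peaks far from either end.

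Clusters of at least 5 peaks, each within 2 kb of the next, were common in the ESC list. Chromosome 16 had 96 with 621 peaks (7.99% of its ESC peaks) and chromosome 20 had 101 with 619 (9.17%), against 4.62% on the other autosomes. Of these clusters 69 and 74 lay within 5 Mb of an end. Clusters of the other autosomes were not divided by zone, so the counts near ends have no background here. The fullest on chromosome 16 had 16 ESC peaks from 73927222 to 73939971, of which 5 overlapped iPSC peaks, and the fullest on chromosome 20 had 17 from 1321345 to 1337828, of which 8 did. The iPSC list had 7 clusters on chromosome 16, all near an end, and 5 on chromosome 20, of which 3 were near an end. They held 1.83% and 1.41% of the iPSC peaks of the chromosomes, against 1.02% on the other autosomes. The fullest had 8 iPSC peaks (chromosome 16, 74554402 to 74564811), each overlapping an ESC peak, and 7 (chromosome 20, 703176 to 709673), of which 4 did.

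Of the 18 peaks named here by fold, all but 2 lay more than 5 Mb from an end. Among overlapping peaks of chromosome 16, the highest iPSC folds were 7.35 at 17111217 to 17111527, where the ESC fold was 1.27, then 5.27 at 68344401 to 68344626 (ESC 2.63) and 4.93 at 13956085 to 13956595 (ESC 1.83). On chromosome 20 they were 6.23 at 39864147 to 39864423 (ESC 3.67), 5.75 at 47629191 to 47629594 (ESC 1.39) and 5.74 at 8443875 to 8444206 (ESC 1.51). The second of these lay inside the sparse run from 42 to 48 Mb. The iPSC background at these 6 sites was 11.4 to 16 fragments, under the chromosome medians of 27.

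On each chromosome the highest fold was lower among peaks in the ESC list alone than among those in the iPSC list alone. Median folds are lower in the ESC list over all autosomes too, at 2.28 against 2.59. In the ESC list alone, the highest on chromosome 16 were 5.63 at 19104407 to 19104659, 4.98 at 67746372 to 67746564 and 4.91 at 53747845 to 53748089, lying 26373 to 64211 bp from the nearest iPSC peak. On chromosome 20 they were 4.87 at 20653682 to 20653915, 4.73 at 56242713 to 56242982 and 4.65 at 26803248 to 26803505, lying 2475 to 51563 bp from one. In the iPSC list alone, chromosome 16 had 6.79 at 66151305 to 66151914, 5.79 at 66221990 to 66224073 and 5.42 at 8521823 to 8522797. The first and second of these lay within the same Mb, and the second was 2084 bp wide. Chromosome 20 had 6.35 at 64153207 to 64153505, 5.15 at 68536011 to 68536585 and 4.79 at 68411161 to 68411611. These 6 iPSC peaks lay 657 to 5919 bp from an ESC peak, in a list whose median gap is 4570 bp on chromosome 16 and 4782 bp on chromosome 20. Distances from ESC peaks to iPSC peaks are longer in a shorter list, so the distances in opposite directions cannot be compared. An order by fold favours sites of low background. No gene is assigned to these positions, since no source used here names the genome build.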

How the data were processed

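DNA from 24 libraries (6 MeDIP and 6 input per cell type) stands behind 2 peak lists. The submitters' processing notes name SAMtools 1.10, Picard, MACS2 and deepTools. No source used here gives the aligner, the build, the MACS2 options or how libraries were combined. Each deposited list holds a fold enrichment (a linear ratio to a local background), a −log10 p-value, a −log10 q-value and a score. The deposited score equals 10 times the −log10 q-value without decimals in 99.99% (ESC) and 99.98% (iPSC) of peaks.

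Windows followed the peak start, distance to an end followed the summit, and a chromosome was taken to reach to its furthest peak end. Overlaps were found with bedtools 2.31.1, other steps in Python 3.11.15. The background behind a peak was solved from the fold (1 is added above and below the ratio) and the p-value, read as a Poisson upper tail. The pileup then came out whole, or in the iPSC list whole times a fitted 0.690, within 0.02 fragments for 100% of ESC and 99.98% of iPSC peaks. In peaks simulated with the same formulas the background was recovered within 1% for 100% (ESC) and 99.9% (iPSC). Depth per library is unknown. Replicate error is not available from single lists, and no test was made. Intervals of counts and shares are exact Poisson or Clopper-Pearson 95% intervals, and those of density ratios are exact conditional intervals. Intervals of medians are binomial order-statistic intervals. For other ratios to the other autosomes, the bounds of the chromosome were divided by the value of the others. The error of that value is therefore left out.

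A gene table of assembly Panubis1.0 was not used for positions, as peaks extend beyond its last gene on 10 of 20 autosomes. Positions count from 1.

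Members, windows and measures were chosen with earlier results of these data known. The comparison with chromosomes 10 and 18, the distance zones, the contrast of first and last ends, the recalculated ratio, the bins, the 10 Mb segments and the cluster counts were added after chromosome and window values had been seen. Named were, per chromosome, the 5 windows with the most ESC and iPSC peaks, the 3 with the fewest ESC peaks, the 3 of highest and lowest iPSC to ESC ratio, the 3 peaks of highest fold in each overlap class and the widest peak of each list. Alternatives varied the q-value minimum, list length, merging, end zone, window size, overlap and comparison chromosomes.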

Additional observations from a re-analysis of the deposited data

How the results depend on the processing

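Of 130 values recomputed under an alternative, 88 stayed within their interval, 41 moved, and 1 whose interval had excluded 1 changed its direction. Some of these outcomes were fixed by the setting, so the counts do not measure robustness. Shortening the ESC list cannot change the density, share near ends, width or dense windows of the iPSC list. Resizing the end zone changes the share near ends by construction. As ratios to the other autosomes, 3 values crossed 1. The iPSC overlap share of chromosome 16 went from 1.03 to 0.985 with interior peaks only. That of chromosome 20 went from 0.9902 to 1.04 with the ESC list shortened to the iPSC length, and the iPSC width of chromosome 16 from 1.004 to 0.992 with a −log10 q-value of at least 5. The intervals of the latter pair held 1 before and after. Ratios to the other autosomes and shares near ends are given below for chromosome 16, then 20. Apart from the resized end zones, why each value moved was not tested.

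Interior peaks only gave density ratios of 1.73 and 1.52 (ESC) and 1.91 and 1.68 (iPSC), and for chromosome 20 an iPSC overlap ratio of 0.943, an ESC width ratio of 1.005 and background ratios of 1.036 (ESC) and 1.04 (iPSC). Without chromosome 19 among the others, density ratios were 1.92 and 1.73 (ESC) and 2.12 and 1.96 (iPSC), and the ESC width ratio of chromosome 16 was 1.02. With the ESC list shortened to the iPSC length, ESC density ratios were 1.91 and 1.75, ESC shares near ends 33.75% and 37.5%, the ESC width ratio of chromosome 16 was 1.009 and the iPSC overlap ratio of chromosome 20 was 1.04. With peaks within 1 kb merged, ESC density ratios were 1.76 and 1.58, ESC width ratios 1.04 and 1.03, ESC shares near ends 26.8% and 28.2%, the iPSC share of chromosome 16 was 36.7%, and iPSC peaks per 100 ESC peaks stood at 1.14 and 1.18 times the others. A −log10 q-value of at least 5 gave ESC shares near ends of 31.7% and 34.4% and an ESC width ratio of 1.02 for chromosome 20. End zones of 2 Mb held 15.5% and 17.98% of ESC and 20.7% and 23.5% of iPSC peaks, and those of 10 Mb 46.9% and 44.2%, and 57.4% and 52.9%. Over all peaks in place of pairs, ESC background ratios were 1.16 and 1.19.

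Shares near ends have no value with interior peaks only and do not involve chromosome 19. No paired analysis was possible because the deposited lists hold no values by replicate, and for the same reason no library was left out. Density ratios of the whole chromosomes and of their interiors stayed above 1 under each alternative run for them. The pair was chosen by density in these same lists, so this is no independent support. From 5 to 10 Mb off an end, chromosome 20 stood at 0.887 (ESC) and 0.821 (iPSC) times the others.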
